A study of Mus musculus with 5 samples.

Results

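The type I interferon response genes followed here were 44 genes chosen by name, taken from 21982 genes measured in the series. The list was chosen with earlier results of these data known, so member shares set beside those of all genes describe the list. A gene was a member if a non-control probe of the array carried its symbol, which gave 63 probes, and all 44 members had at least 1. Expression was measured on 5 mouse arrays, 1 per sample. Chemically induced neural progenitor cells (ciNPC), obtained by treating fibroblasts with chemicals in hypoxia, were sampled at passage 13 (p13, 2 arrays) and at passage 5 (p5, 1 array). The control neural progenitor cells (NPC, 1 array) came from mouse brain, and mouse embryonic fibroblasts (MEF, 1 array) stood for the cells of origin. The labels give no strain, age, compound list or number of cultures, so the p-values reflect the spread among these arrays alone, and that spread may be technical. All ciNPC arrays lay on 1 slide and were scanned together, and the NPC and MEF arrays lay on another. A difference of ciNPC from NPC or MEF and a difference between slides therefore cannot be told apart, whereas p13 against p5 and NPC against MEF were each measured within a slide.

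Type I interferons are secreted proteins that a cell makes when sensors in its cytoplasm or endosomes meet viral or misplaced nucleic acid. They bind a receptor whose kinases activate a complex that contains STAT2 and IRF9, and this complex binds the interferon-stimulated response element (ISRE) in the promoters of their target genes. The products of these genes sense nucleic acid, block translation and viral replication, conjugate the ubiquitin-like protein ISG15 to other proteins and call in immune cells. Fibroblasts respond strongly to interferon, and several kinds of stem cell are known to express a subset of these genes without stimulation.

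The promoter letters of the response genes are shown first, because the ISRE is what these genes share by their known control. The promoter table (RefSeq, build GRCm38.p6; 250 bases before to 50 bases after the gene start) held 33 of the 44 members. The ISRE letters, GAAA followed by any 2 bases and a second GAAA, were searched on both strands. They stood in 17 of these 33 members (51.5%), against 3.99% of the 27025 genes of the table. The letters of the gamma-activated site, TTCNNNGAA, read the same on both strands and overlapped the ISRE letters in Bst2. They stood in 8 of the 33 members (24.2%), against 9.55% of all genes. Printed here are the 250 bases before the start of the 4 members with the largest measured difference of ciNPC from MEF among those tested that hold the ISRE letters, with those letters in capitals. For Rsad2 that difference is taken from a MEF value not well above background. In Gbp3 and Rsad2 the match lies on the opposite strand, so the capitals show its reverse complement.
Oas1a, chr5:120907526-120907775, minus strand: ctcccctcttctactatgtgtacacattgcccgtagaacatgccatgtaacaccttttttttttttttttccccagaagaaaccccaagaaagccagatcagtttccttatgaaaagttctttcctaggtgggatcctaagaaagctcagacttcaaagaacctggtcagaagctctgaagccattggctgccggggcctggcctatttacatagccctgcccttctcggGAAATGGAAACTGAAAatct
Gbp3, chr3:142559794-142560043, plus strand: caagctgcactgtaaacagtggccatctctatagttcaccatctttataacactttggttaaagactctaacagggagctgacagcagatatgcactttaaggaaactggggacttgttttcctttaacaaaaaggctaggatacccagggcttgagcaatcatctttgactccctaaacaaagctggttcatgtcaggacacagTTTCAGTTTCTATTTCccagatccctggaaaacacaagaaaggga
Cxcl10, chr5:92348890-92349139, minus strand: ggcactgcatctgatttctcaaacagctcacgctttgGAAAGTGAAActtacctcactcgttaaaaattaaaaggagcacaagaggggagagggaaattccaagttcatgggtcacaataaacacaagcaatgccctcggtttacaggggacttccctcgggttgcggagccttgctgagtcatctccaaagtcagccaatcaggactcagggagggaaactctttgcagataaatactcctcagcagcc
Rsad2, chr12:26456453-26456702, minus strand: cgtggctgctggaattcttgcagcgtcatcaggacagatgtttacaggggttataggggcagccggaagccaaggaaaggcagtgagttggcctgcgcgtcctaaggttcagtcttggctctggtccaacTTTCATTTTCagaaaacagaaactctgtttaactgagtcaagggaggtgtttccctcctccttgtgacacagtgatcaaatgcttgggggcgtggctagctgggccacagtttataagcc

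Shorter windows of 30 bases are given for 7 further members that the results turn on. Each is written along the strand that carries the match, so that the first ISRE letters in the window can be set under one another, and these are in capitals.
Isg15, chr4:156200877-156200906, minus strand: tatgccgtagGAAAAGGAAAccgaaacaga
Ifit1, chr19:34640775-34640804, minus strand: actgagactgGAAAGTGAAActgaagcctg
Ifit3, chr19:34583363-34583392, minus strand: accagaagagGAAAGTGAAActtaccactg
Bst2, chr8:71537583-71537612, minus strand: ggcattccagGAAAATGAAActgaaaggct
Stat2, chr10:128270266-128270295, minus strand: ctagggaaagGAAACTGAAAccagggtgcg
Igtp, chr11:58199512-58199541, plus strand: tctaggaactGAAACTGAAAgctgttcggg
Irgm1, chr11:48871431-48871460, minus strand: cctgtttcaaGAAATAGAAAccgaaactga
Isg15 held 3 overlapping matches, while Oas1a, Gbp3, Irgm1 and Bst2 each held 2 that overlap. The first base of the match lay 20 bases before the start in Oas1a and 213 bases before it in Cxcl10. A match is a description of the letters and not a measured binding site.

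**Figure D1:**
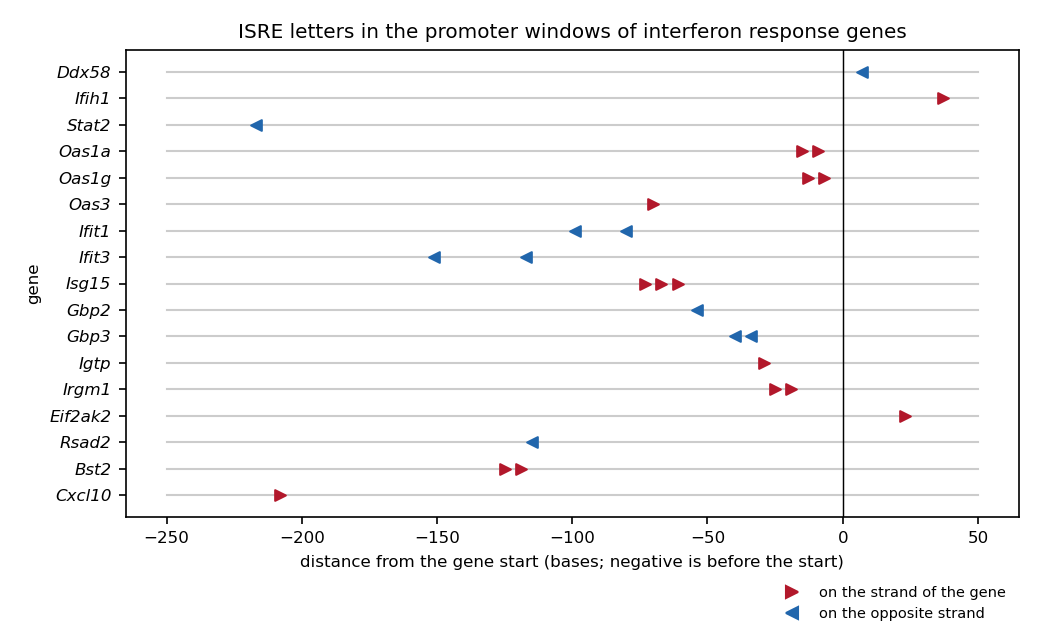
Positions of the ISRE letters in the promoter windows of the 17 members that hold them; the horizontal axis is the distance from the gene start in bases, each grey line is 1 window of 300 bases, and triangles mark the middle of a match on the strand of the gene (red) or the opposite strand (blue). In Ddx58, Ifih1 and Eif2ak2 the match lies after the start, and in the other 14 members before it.

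The level of a gene is the log2 of its processed fluorescence intensity minus the 75th percentile of the same array, so a level of 0 is that percentile. Between 47.9% and 57.6% of the non-control spots of an array were well above background, and precision is limited by having 5 arrays. Spike-in controls had a slope of 0.803 on p13 replicate 2 and of 0.915 to 0.987 on the other 4 arrays. A probe counted as detected where the scanner software called it well above background. Of the 44 members, 37 and 39 were detected on the p13 arrays and 40 on the p5 array, against 31 on the NPC array and 37 on the MEF array. Oas1g, Oas3 and Mx1 were not well above background on any array, and Epsti1 was so on p13 replicate 2 alone, so these 4 were not tested. Of the 40 members tested, 27 were detected in all 4 groups (p13, p5, NPC and MEF), 11 in 3 and 2 in 2. A member detected in some groups only may have entered the test through the group where it is high, so counts over the 40 are descriptions of the list.

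**Figure D2:**
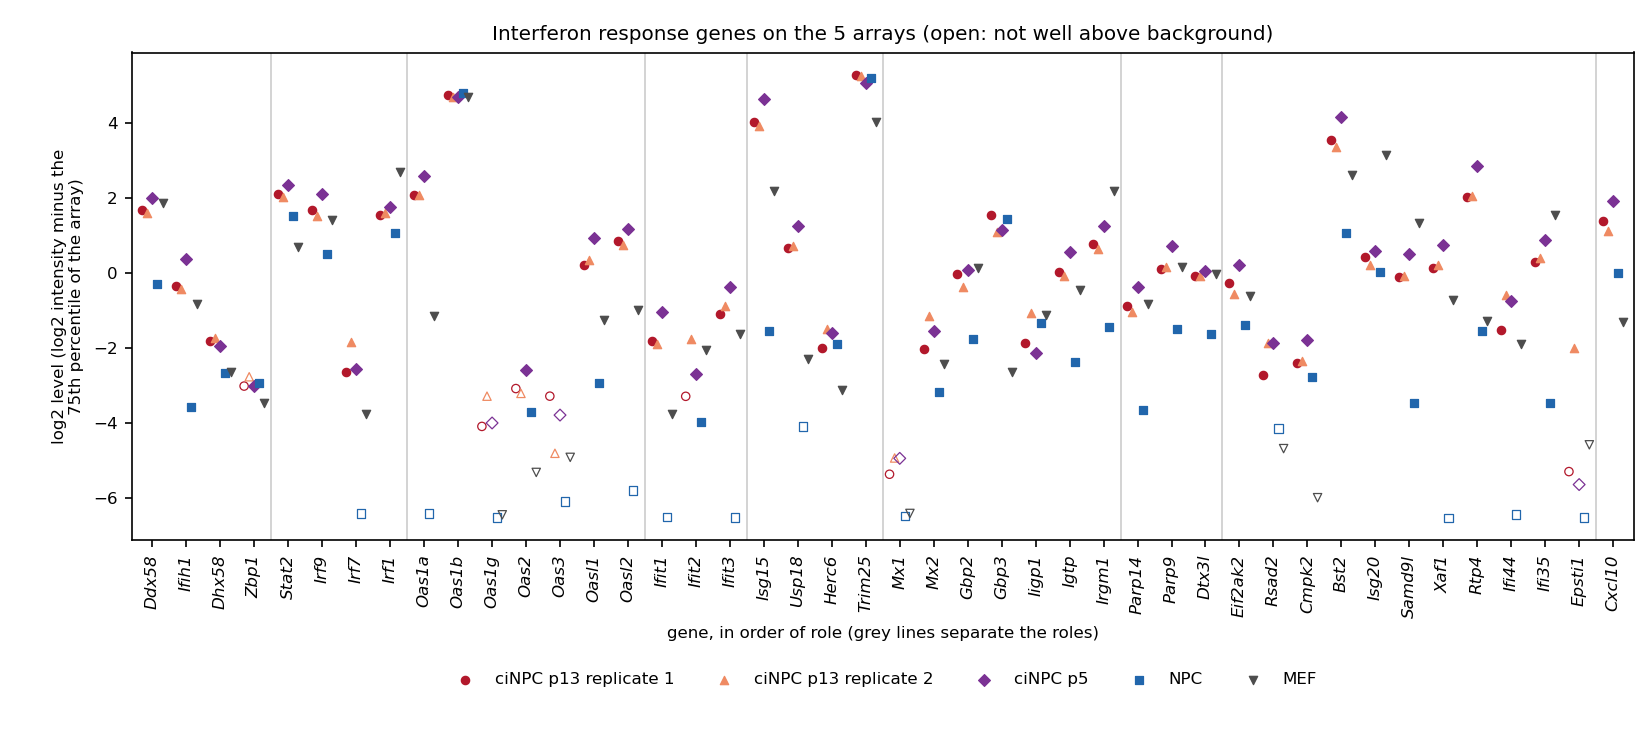
Level of each of the 44 members on the 5 arrays, on a log2 scale relative to the 75th percentile of the array, in order of role; filled symbols are well above background and open symbols are not. The NPC squares reach the bottom of the plot for Irf7, Oas1a, Ifit1, Ifit3, Xaf1 and Ifi44, while the ciNPC symbols for Isg15 lie between 3.91 and 4.63.

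Against NPC, 24 members were higher in ciNPC and 0 lower. A gene passed here at a limma adjusted p under 0.05 over all 16231 genes tested together with a difference of at least 2-fold. Over all genes tested, 4.9% passed as higher and 0.0801% as lower. At an unadjusted limma p under 0.05, 29 members were higher and 0 lower, against 9.47% and 6.57% of all genes. The measured log2 difference of the 40 members tested had a median of 1.91, and that of all genes tested was -0.11. Restricted to genes detected on all 5 arrays, 16 of 27 members were higher, where 3.68% of such genes passed as higher, and 0 were lower, where 0.0166% did. The median of these 27 was 1.61, and that of all such genes was -0.14. Without an intensity trend in the variance prior, 15 of the 40 passed as higher, against 3.17% of all genes. All 5 fibroblast markers (Col1a1, Col1a2, Thy1, Twist2 and Acta2) were also higher in ciNPC than in NPC, and 4 were lower than in MEF. On a linear scale in which 1 is the 75th percentile of an array, the summed fibroblast marker level was 346 and 325 at p13 and 440 at p5, against 0.628 in NPC and 2155 in MEF. The fibroblast markers moved with the difference from NPC, and their part in that difference was not tested. In RNA of whole cultures, fewer cells of a type and less RNA per cell cannot be told apart.

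Against MEF, 17 of the 40 members tested were higher in ciNPC, where 15.6% of all genes passed as higher. Another 5 were lower, a share near the 15.1% of all genes that passed as lower. The median of the 40 was 0.85, and that of all genes tested was -0.08. Restricted to genes detected on all 5 arrays, 9 of 27 members were higher (17.0% of such genes) and 5 lower (16.4%), and the median of the 27 was 0.40, against -0.01 for all such genes. The lower members were Irf1, Irgm1, Isg20, Samd9l and Ifi35. Scaling on the probes detected everywhere moved the median of all genes by 0.14 on the log2 scale relative to MEF and by 0.11 relative to NPC, and Irf1 and Ifi35 then lay within 2-fold of MEF. Of the 22 calls against MEF, 13 held under every alternative setting that tested the gene, leaving out an array included, and the 9 lost under at least 1 were Bst2, Herc6, Ifi35, Ifit1, Irf1, Oas2, Samd9l, Trim25 and Xaf1. Of the 24 calls against NPC, 11 held and 13 were lost under at least 1, namely Bst2, Cxcl10, Ddx58, Dtx3l, Gbp2, Ifih1, Ifit1, Igtp, Irf7, Irf9, Irgm1, Parp14 and Parp9.

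**Figure D3:**
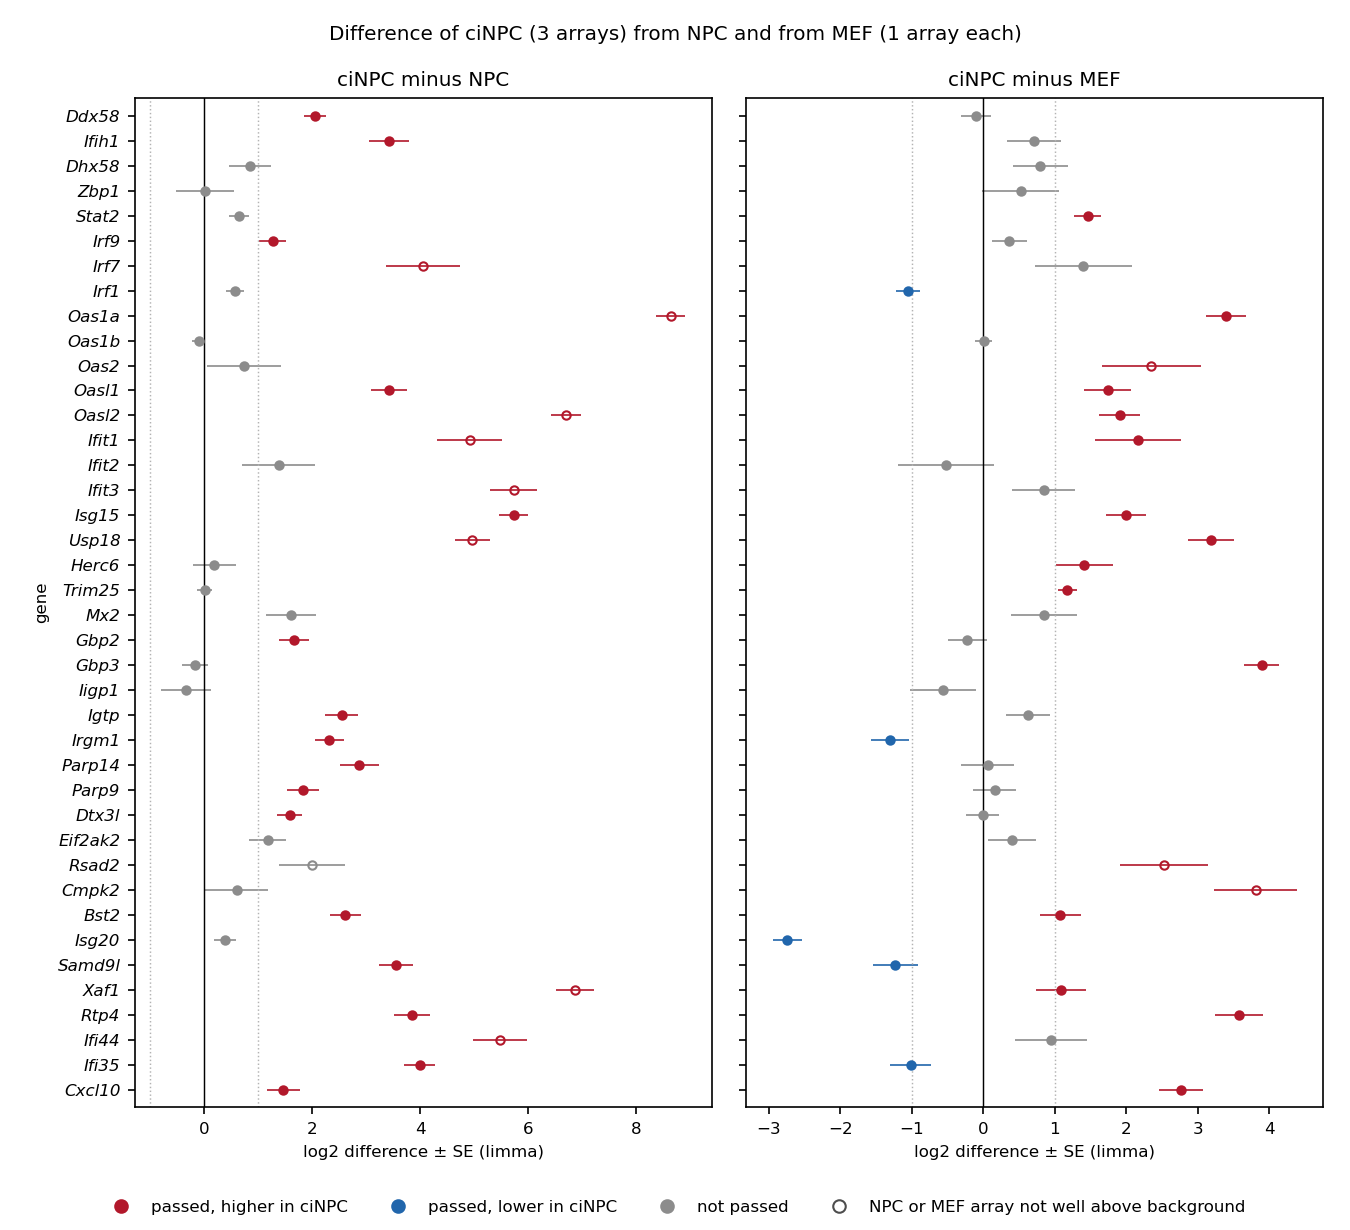
Log2 difference of ciNPC (3 arrays) from NPC (left) and from MEF (right) for the 40 members tested, with the limma SE; red points passed as higher in ciNPC, blue as lower, grey did not pass, and open points mark an NPC or MEF array that was not well above background, where the measured difference is not a bound. The left panel holds 24 red and 0 blue points and the right panel 17 red and 5 blue.

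Sensors of foreign nucleic acid come first in the pathway. Ddx58, which encodes RIG-I, a sensor of viral RNA, had log2 levels of 1.68 and 1.60 on the p13 arrays and 1.99 on the p5 array, against -0.29 in NPC and 1.86 in MEF. The ciNPC and MEF values overlapped, and the difference from NPC was 2.05 ± 0.21 on the log2 scale (SE; limma adjusted p = 0.00114). A second Ddx58 probe was detected on the p5, NPC and MEF arrays but on neither p13 array. It gave 0.46 against NPC and -1.17 against MEF, values that are limited by the background. Ifih1, encoding MDA5, a sensor of long double-stranded RNA, stood at -0.34 and -0.43 (p13) and 0.37 (p5), against -3.55 in NPC and -0.84 in MEF. It was higher in ciNPC than in NPC by 3.42 ± 0.38 on the log2 scale (SE; limma adjusted p = 0.00179) and did not pass against MEF. Dhx58, the regulator LGP2 of these sensors, lay between -1.93 and -1.72 in ciNPC, against -2.67 in NPC and -2.63 in MEF, and passed in neither comparison. Zbp1, which recognises left-handed nucleic acid and triggers cell death, lay between -3.01 and -2.76 in ciNPC, against -2.94 in NPC and -3.45 in MEF, and did not pass. The probe used for Zbp1 was detected on the p5 array alone among the ciNPC arrays, and its second probe on p13 replicate 2 alone.

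The transcription factors that carry the signal differed from each other. Stat2 had levels of 2.10 and 2.02 (p13) and 2.34 (p5), against 1.52 in NPC and 0.69 in MEF. It was 2.75-fold higher in ciNPC than in MEF (log2 difference 1.46 ± 0.19 SE, limma adjusted p = 0.000825), and the difference of 0.64 from NPC did not pass. Irf9, its DNA-binding partner, had levels of 1.68 and 1.51 (p13) and 2.10 (p5), against 0.50 in NPC and 1.40 in MEF, and was 2.41-fold higher than in NPC (limma adjusted p = 0.0311). Irf7, the factor that amplifies interferon alpha genes, had levels of -2.64 and -1.85 (p13) and -2.55 (p5), against -3.74 in MEF. In NPC it was not well above background, which made ciNPC at least 3.57-fold higher (limma adjusted p = 0.0152). This bound compares the ciNPC mean with the lowest detected signal of the NPC array. Every bound given here uses the lowest detected signal of the dimmer array, or the signal of the probe itself where that was higher. A limma p printed beside a bound tests the measured difference, with no such floor, and not the bound. Irf1, a factor also induced by interferon gamma, was lower than in fibroblasts. Its levels were 1.55 and 1.60 (p13) and 1.74 (p5), against 1.06 in NPC and 2.68 in MEF, which was 2.07-fold lower in ciNPC than in MEF (limma adjusted p = 0.00208).

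Oligoadenylate synthetases, which make the messenger that activates the RNA-degrading enzyme RNase L, held the largest measured difference from NPC. Oas1a had levels of 2.07 and 2.09 (p13) and 2.57 (p5), against -6.40 in NPC, which was not well above background, and -1.16 in MEF. All ciNPC arrays lay above both other cell types. The gene was at least 85.9-fold higher in ciNPC than in NPC (limma adjusted p = 6.81e-06) and 10.5-fold higher than in MEF (log2 difference 3.40 ± 0.28 SE, limma adjusted p = 0.000121). Its probe also lists the accession of Oas1g, and an Oas1g probe lists that of Oas1a, so signal from these near copies cannot be told apart, although the second Oas1a probe gave 2.99 against MEF. Oasl2, a ubiquitin-domain relative, was at least 34.2-fold higher in ciNPC than in NPC and 3.75-fold higher than in MEF. Oasl1 was higher than in NPC by 3.42 and than in MEF by 1.74 on the log2 scale. Oas1b was nearly level on the probe used, at 4.67 to 4.73 in ciNPC, 4.80 in NPC and 4.69 in MEF. Its second probe, also detected on all 5 arrays, lay between -1.97 and -0.98 and gave 0.56 against MEF and 0.44 against NPC. Oas2 passed as higher in ciNPC than in MEF (limma adjusted p = 0.0282). Only the p5 array detected it among the ciNPC arrays and MEF did not, so no bound is given.

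IFIT proteins bind viral RNA and block its translation. Ifit1 had levels of -1.82 and -1.89 (p13) and -1.03 (p5), against -3.75 in MEF and a value not well above background in NPC. It was at least 6.07-fold higher in ciNPC than in NPC and 4.49-fold higher than in MEF (limma adjusted p = 0.00311 and 0.0226). Ifit3 was at least 10.6-fold higher than in NPC and did not pass against MEF. Ifit2 was detected on 2 of the 3 ciNPC arrays, ranged there from -3.28 to -1.75, and passed in neither comparison. Leaving out 1 ciNPC array ended the call against MEF for Ifit1 and for Oas2. Without p5 their limma adjusted p was 0.0837 and 0.095, and without p13 replicate 1 it was 0.0806 and 0.131.

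All 4 members of the ISG15 system were higher in ciNPC than in MEF, where 15.6% of all genes were. Relative to NPC, 2 were higher, where 4.9% of all genes were. Uba7, the ISG15-activating enzyme, is not a member and was 6.69-fold lower in ciNPC than in MEF. Isg15, the ubiquitin-like modifier itself, had levels of 4.02 and 3.91 (p13) and 4.63 (p5), against -1.54 in NPC and 2.19 in MEF. Each ciNPC array lay above both other cell types, by 53.1-fold on average over NPC (limma adjusted p = 3.13e-05) and 3.99-fold over MEF (limma adjusted p = 0.00117). Usp18, the protease that removes ISG15 and restrains the interferon receptor, had levels of 0.67 and 0.72 (p13) and 1.26 (p5), against -2.30 in MEF. It was at least 31.3-fold higher in ciNPC than in NPC, where it was not well above background, and 9.07-fold higher than in MEF (limma adjusted p = 0.000117 and 0.000301). Herc6, the ISG15 ligase of mice, was 2.66-fold higher than in MEF (limma adjusted p = 0.0237) and did not pass against NPC. Its call against MEF was lost with quantile normalization (limma adjusted p = 0.0633), the deposited value table (0.0634), no filter on dim probes (0.0700) and the mean of its probes (0.0518). Trim25, the ubiquitin ligase that acts on RIG-I, passed at 2.26-fold above MEF through a probe of 60 bases that holds a repeat of 2 bases over a run of 30. Its other probe gave a log2 difference of -0.14 from MEF, and the mean of both gave 0.52, under 2-fold.

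Among the GTPases that coat intracellular pathogens, Gbp3 had the largest difference from MEF among the members detected in MEF. Its levels were 1.54 and 1.08 (p13) and 1.13 (p5), against 1.42 in NPC and -2.65 in MEF. It was 14.9-fold higher in ciNPC than in MEF (log2 difference 3.90 ± 0.24 SE, limma adjusted p = 4.39e-05) and overlapped the NPC value. The other GTPases that passed were set apart from NPC: Igtp was 5.82-fold higher, Irgm1 4.97-fold and Gbp2 3.17-fold. Irgm1, a regulator of the immunity-related GTPases, was at the same time 2.46-fold lower than in MEF, with levels of 0.77 and 0.64 (p13) and 1.24 (p5), against -1.43 in NPC and 2.18 in MEF. Mx2, an antiviral dynamin-like GTPase, had levels of -2.01 and -1.14 (p13) and -1.55 (p5), against -3.17 in NPC and -2.41 in MEF, and did not pass. Mx1, which many laboratory strains carry in a defective form, lay between -6.46 and -4.92 on all 5 arrays, never well above background. Iigp1 passed in neither comparison.

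Parp14, Parp9 and Dtx3l, of which Parp9 and Dtx3l form a complex of an ADP-ribosyltransferase and a ubiquitin ligase, all passed against NPC. They were 7.33-fold, 3.54-fold and 2.99-fold higher in ciNPC than in NPC and differed from MEF by 0.16 or less on the log2 scale. Parp14 had levels of -0.88 and -1.04 (p13) and -0.36 (p5), against -3.64 in NPC and -0.82 in MEF, so ciNPC and MEF overlapped.

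The remaining effectors ran in several patterns. Rtp4, a chaperone of membrane receptors, had levels of 2.02 and 2.04 (p13) and 2.84 (p5), against -1.55 in NPC and -1.28 in MEF, which was 14.4-fold above NPC and 11.9-fold above MEF (limma adjusted p = 0.000597 and 0.000233). Rsad2, the antiviral enzyme viperin, had levels of -2.72 and -1.86 (p13) and -1.86 (p5) and was not well above background in NPC or MEF, so it entered the test through the ciNPC arrays alone. It was at least 3.92-fold higher in ciNPC than in MEF (limma adjusted p = 0.0136), and the difference from NPC did not pass. Cmpk2, a mitochondrial nucleotide kinase whose gene neighbours Rsad2, was at least 3.86-fold higher than in MEF, where it was not well above background, and did not pass against NPC.

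Xaf1, a pro-apoptotic protein, had levels of 0.13 and 0.22 (p13) and 0.74 (p5), against -6.52 in NPC, not well above background, and -0.72 in MEF. It was at least 23.3-fold higher than in NPC (limma adjusted p = 3.74e-05) and 2.12-fold higher than in MEF. Bst2, the membrane protein tetherin that holds budding virus, was 6.12-fold higher than in NPC and 2.11-fold higher than in MEF. Leaving out p5 brought Bst2 and Xaf1 to log2 differences of 0.85 and 0.89 from MEF, under 2-fold, and leaving out p13 replicate 1 gave Xaf1 a limma adjusted p of 0.0668. Ifi44 was at least 9.40-fold higher than in NPC and did not pass against MEF, and Eif2ak2, encoding the kinase PKR that halts translation, passed in neither. Without p13 replicate 2, Eif2ak2 passed against NPC (log2 difference 1.35, limma adjusted p = 0.0292).

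Of the 10 other effectors tested, 3 were lower in ciNPC than in MEF. Over all 40 members tested the share that was lower was 12.5%, near the 15.1% of all genes. Isg20, an RNA exonuclease, had levels of 0.42 and 0.22 (p13) and 0.57 (p5), against 0.02 in NPC and 3.14 in MEF, which was 6.68-fold below MEF (log2 difference -2.74 ± 0.21 SE, limma adjusted p = 9.03e-05). Samd9l, a growth-restraining antiviral protein, had levels of -0.11 and -0.09 (p13) and 0.51 (p5), against -3.45 in NPC and 1.33 in MEF. It was thus 2.34-fold below MEF and 11.7-fold above NPC, and its call against MEF was lost under at least 1 alternative setting. Ifi35 followed the same order, 2.02-fold below MEF and 15.9-fold above NPC, and its call against MEF was lost without p13 replicate 1 (log2 difference -0.89) and without p13 replicate 2 (-0.95).

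Cxcl10, the chemokine that draws activated T cells, was the only chemokine among the members. Its levels were 1.38 and 1.12 (p13) and 1.90 (p5), against 0.01 in NPC and -1.30 in MEF. It was 2.76-fold higher in ciNPC than in NPC (limma adjusted p = 0.0422) and 6.81-fold higher than in MEF (limma adjusted p = 0.00045).

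10 members had every ciNPC array at least 2-fold above both NPC and MEF, with dim values raised to the lowest detected signal of their array. They were Irf7, Oas1a, Oasl1, Oasl2, Ifit1, Isg15, Usp18, Rsad2, Rtp4 and Cxcl10. Of these 10, Rsad2 was detected in ciNPC alone. Over all genes tested, 1.47% met this rule, which was chosen after the values were seen. 0 members lay at least 2-fold below both on every ciNPC array, a place held by 0.0308% of all genes.

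The target and the starting cell type also differed in these genes. NPC and MEF had 1 array each, on the same slide, and the difference is given without a test. With dim values at the floor, 13 members were at least 4-fold lower in NPC than in MEF, where 10.1% of all genes were, and 1 was at least 4-fold higher, where 7.94% were. The higher member was Gbp3, with a level of 1.42 in NPC against -2.65 in MEF. Among the lower members, Ifi35 stood at -3.47 in NPC against 1.53 in MEF, Samd9l at -3.45 against 1.33, Isg15 at -1.54 against 2.19 and Irgm1 at -1.43 against 2.18. The measured median of the 40 members tested was -1.67 for NPC minus MEF, and that of all genes tested was -0.04.

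Between p13 and p5, 0 of the 40 members passed at 2-fold in either direction, where 0.413% of all genes passed as higher and 0.259% as lower. At a limma adjusted p under 0.05 with no limit on fold, 5 members were lower at p13, against 4.45% of all genes, and 0 were higher, against 1.81%. At an unadjusted limma p under 0.05 the members numbered 17 lower and 0 higher, against 15.4% and 7.32% of all genes. The 5 members were Bst2 (1.63-fold, limma adjusted p = 0.0085), Isg15 (1.58-fold, 0.00995), Rtp4 (1.75-fold, 0.0124), Cxcl10 (1.57-fold, 0.0444) and Irf9 (1.42-fold, 0.049). Bst2 had levels of 3.54 and 3.36 at p13, against 4.15 at p5, and for each of these 5 genes both p13 arrays lay below the p5 array.

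Among the 27 members detected on all 5 arrays, 20 had both p13 arrays below the p5 array, where 49.5% of the 12021 such genes did, and 3 had both above it, where 31.9% did. The 3 were Dhx58, Trim25 and Iigp1. The median of the 27 differences was -0.51, against -0.06 for all such genes. With 1 array at p5, every one of these differences rests on that array. Markers of fibroblasts moved the same way. All 5 lay lower on both p13 arrays than on the p5 array, with a median log2 difference of -0.38, and Col1a2 was lower at p13 by a log2 difference of -0.46 (limma adjusted p = 0.0292) and Acta2 by -0.38 (0.045). The part of fibroblasts in the passage difference was not tested.

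**Figure D4:**
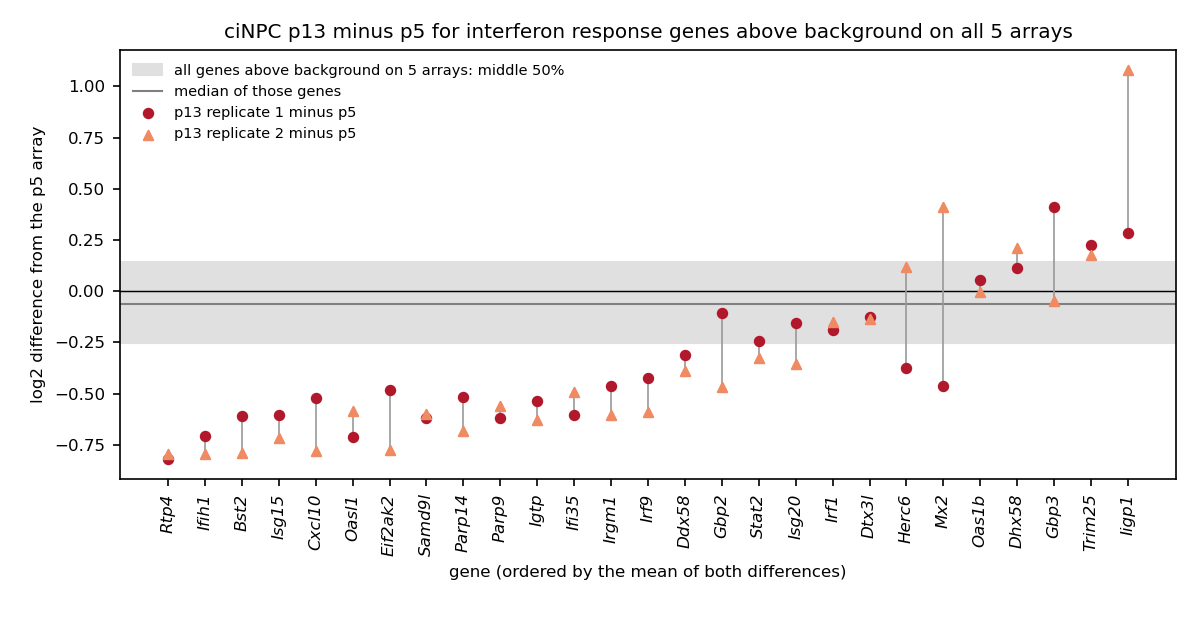
Difference of each p13 array from the p5 array on the log2 scale for the 27 members detected on all 5 arrays, ordered by their mean; the grey band holds the middle 50% of the 12021 genes detected on all 5 arrays and the grey line is their median of -0.06. For 20 members both symbols lie below 0, with Rtp4 lowest on average, and for Dhx58, Trim25 and Iigp1 both lie above it.

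The genes that make and relay interferon were examined as lists. Of 21 interferon ligand genes listed, 16 were measured and 11 tested, and 0 passed in limma as higher in ciNPC than in either cell type. At an unadjusted limma p under 0.05, 2 were higher than in NPC (Ifna14 and Ifnl3), where 9.47% of all genes were. Relative to MEF, 0 were higher, where 26.6% of all genes were. Ifnb1, encoding interferon beta, was not well above background on any array, whereas Ifna1, Ifna14, Ifnab and Ifnl3 were on all 5. Ifnl3 had levels of -1.13 and -0.95 (p13) and -1.31 (p5), against -2.44 in NPC and -0.97 in MEF. Ifna7 was at least 4.33-fold lower in ciNPC than in NPC (limma adjusted p = 0.0471), and Ifnk was at least 4.82-fold lower than in MEF (limma adjusted p = 0.00728). A low level of ligand RNA on these arrays is limited by the background and does not measure secreted protein.

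Of 11 receptor and JAK-STAT genes, 6 were lower in ciNPC than in MEF, where 15.1% of all genes were, 0 were higher, where 15.6% were, and 0 passed against NPC in limma. At an unadjusted limma p under 0.05, 6 were lower than in MEF, where 27.2% of all genes were, 0 were higher, where 26.6% were, and 0 differed from NPC in either direction. Ifnar1, a chain of the type I receptor, was at 2.31 and 2.19 (p13) and 2.25 (p5), against 2.50 in NPC and 2.30 in MEF. Ifnar2, its partner chain, was 2.51-fold lower in ciNPC than in MEF and did not pass against NPC. Jak1, a receptor kinase, was 2.14-fold lower than in MEF, and Tyk2, the other kinase of the type I receptor, did not pass.

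Sensor adaptors, kinases and further IRFs numbered 18, of which 17 were tested. Against MEF, 2 were higher and 2 lower, no larger a share than among all genes. Of these, Cgas (log2 difference 1.59), the sensor of cytoplasmic DNA, and Traf3 (2.82-fold), an adaptor, were higher, and Myd88 (-1.73) and Traf6 (-1.08), adaptors of Toll-like receptors, were lower. Against NPC, Myd88 alone passed (1.14), a share near the 4.9% of all genes that passed as higher. Irf3 and Mavs, the factor and the adaptor that act below RIG-I, passed in neither comparison. Of 14 negative regulators, 1 was higher (Nlrc5, 1.79) and 4 were lower in ciNPC than in MEF (15.6% and 15.1% of all genes), among them Socs1 (-1.77), which blocks JAK kinases. Against NPC, 2 of the 14 were higher, where 4.9% of all genes were. They were Socs1 (1.61) and Tnfaip3, a brake on NF-kB signalling (at least 10.8-fold). Nlrx1, a mitochondrial regulator, was the 1 gene of these lists to pass between passages, higher at p13 than at p5 by 1.08 on the log2 scale (limma adjusted p = 0.026).

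A further list of 63 interferon-induced genes outside the 44 was examined, of which 61 were measured and 54 tested. It held 22 genes higher in ciNPC than in NPC, where 4.9% of all genes were, and 0 lower, where 0.0801% were. Against MEF, 10 were higher, a share near the 15.6% of all genes, and 15 were lower, where 15.1% of all genes were. By measured difference Plac8 and Ifi204 came first against NPC, where neither was well above background, and they were at least 34.3-fold and 19.7-fold higher in ciNPC. The bounds for Ccl5 (at least 45.8-fold) and Apol9b (at least 39.1-fold), named after their values were seen, were larger. Relative to MEF, Gbp7 was highest (log2 difference 2.69). Gbp5 also passed, but MEF and both p13 arrays did not detect it, so no bound is given. Tdrd7, detected on all 5 arrays and named after its value was seen, was 4.93-fold higher. The lowest that passed were Uba7 (-2.74), the ISG15-activating enzyme, and Plac8 (-2.54). Medians over the genes tested were 1.04 against NPC and -0.46 against MEF.

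**Figure D5:**
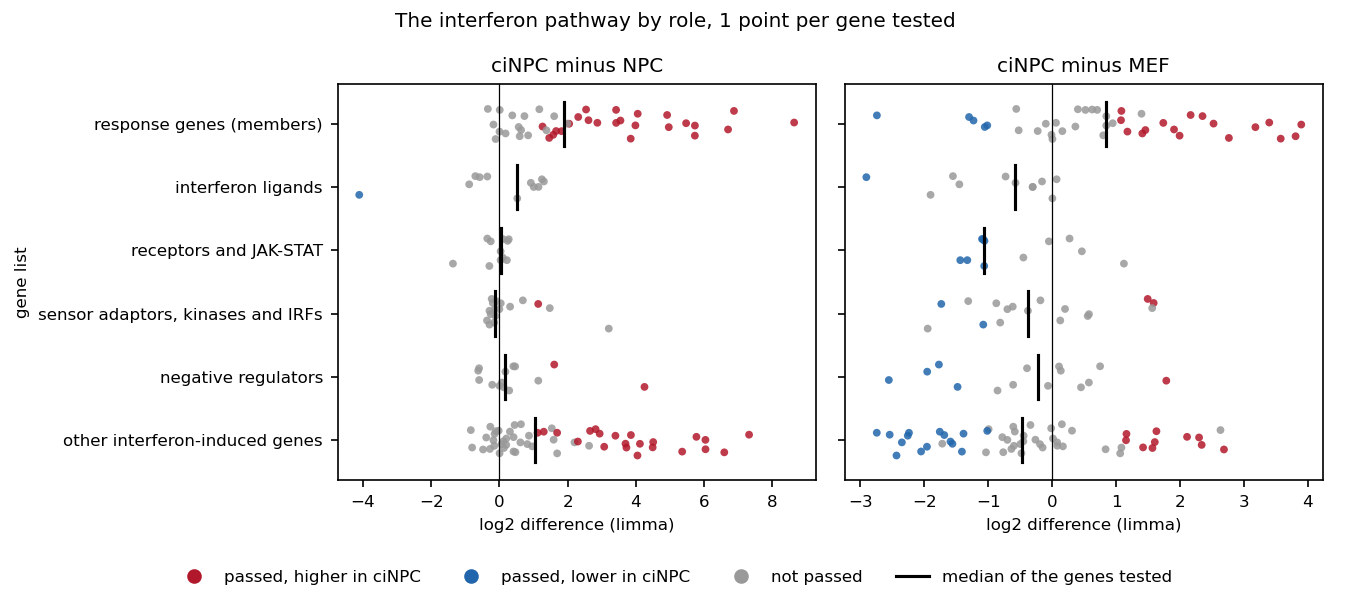
Log2 difference of ciNPC from NPC (left) and from MEF (right) for the genes tested in the 44 members and in 5 further lists of the pathway, 1 point per gene; red passed as higher in ciNPC, blue as lower, grey did not pass, and the black bar is the median of the list. The receptor and JAK-STAT list shows 6 blue points against MEF and 0 coloured points against NPC.

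Markers of other cell types were set beside these results. Of the neural progenitor markers Sox2, Nes, Pax6, Olig2 and Fabp7, all 5 were higher in ciNPC than in MEF and 0 passed against NPC. Of 12 macrophage markers, 11 were tested. Of these, 3 were higher in ciNPC than in NPC, where 4.9% of all genes were, and 2 lower than in MEF, where 15.1% were. The 3 were Tyrobp (at least 4.16-fold), Aif1 and Adgre1. Aif1 was not detected on p13 replicate 1 and Adgre1 not on p13 replicate 2, nor either in NPC, so no bound is given for them. On the linear scale used for the fibroblast markers, the summed level of the 12 macrophage markers was 14.5 to 16.7 in ciNPC, against 17.0 in NPC and 67.6 in MEF. Itgam had the highest level of the 12 on every array, so the sum mostly follows Itgam. Its log2 level was 3.53 to 3.73 in ciNPC, 3.86 in NPC and 5.96 in MEF. At an unadjusted limma p under 0.05, 5 of the 11 were higher than in NPC and 0 lower, against 9.47% and 6.57% of all genes. Relative to MEF, 0 were higher and 3 lower, against 26.6% and 27.2%. Ptprc, the common leukocyte marker, was not well above background on any array. Of the endothelial markers, Cdh5 and Tek were likewise never well above background, whereas Pecam1 and Kdr were on all 5 arrays and Emcn on 4. Of the lymphocyte markers, Ms4a1 was never well above background, whereas Cd3e and Cd79a were on all 5 arrays.

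The ISRE letters were last counted by call. Of the members higher in ciNPC than in MEF that the promoter table holds, 8 of 14 had them, against 6 of 11 of those that did not pass and 1 of 5 of those that were lower. Against NPC, 11 of 20 higher members had them and 4 of 10 that did not pass. These counts are small and were not tested. Isg20 and Ifi35, both lower than in MEF, held the TTCNNNGAA letters in this window and no ISRE letters, as did Irf1. Of the other lower members, Irgm1 held the ISRE letters alone and Samd9l held neither. Oas1a and Bst2, both higher than in MEF, held both.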

How the data were processed

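Total RNA was labelled with Cy3 and hybridised to 1-colour Agilent 60-base arrays annotated on mm9, per the file headers. The authors extracted spots with Agilent Feature Extraction 10.7.1.1, per the submitters' processing notes, and deposited the processed intensity of each spot, with background correction and no scaling across arrays. A table of log2 values, 1 per probe, was deposited as well. Its columns had medians of 5.65 and correlated at 0.995 to 0.999 with the log2 processed intensity, and the step that made it is not given in the sources used here.

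Of 55681 non-control probes, 7 had every spot marked as an outlier and were dropped. Probes were named by the accession in the files, or otherwise by symbol, through a RefSeq gene table (GRCm38.p6, names only), giving 21982 genes. Log2 intensity was averaged over unmarked spots and reduced by the 75th percentile of the array, and each gene took its probe with the highest mean. Genes were kept (16231) if all arrays of any 1 of the 4 groups called their probe well above background, and were fitted in limma 3.58.1 (R 4.3.3, eBayes with an intensity trend, Benjamini-Hochberg adjustment). ciNPC against NPC or MEF treated the 3 ciNPC arrays as 1 cell type (2 residual degrees of freedom), and the lone NPC and MEF arrays were assumed to vary like them. p13 against p5 used 4 groups (1 residual degree of freedom). The fit was also run on simulated data in which every array was given the spread of the ciNPC arrays. That simulation therefore cannot test whether NPC and MEF vary like ciNPC. For NPC against MEF and for folds given as bounds, dim values were raised to the lowest well-above-background signal of the array. The limma fits used the values without this floor.

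The members and the gene lists were chosen with earlier results of these data known. Values on every array are given for the member with the largest difference in each role, for the sensors, the transcription factors and some members fixed by name, and for a few others picked after their values were seen. From each wider list the extremes by measured difference among genes that passed, some fixed names and a few picked later are given. Alternatives covered the scaling, background correction, filter, probe choice, variance prior, the deposited table and leaving out arrays.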

Additional observations from a re-analysis of the deposited data

How the results depend on the processing

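None of the counts, medians and differences of members that passed changed direction under the alternatives run, and members that passed in no comparison were not followed one by one. Against NPC (24 members higher, 0 lower, median of the members tested 1.91), leaving out each ciNPC array in turn gave 24 to 25 higher, 0 lower and medians of 1.74 to 2.01. The count fell to 15 without an intensity trend in the variance prior, and the median was 1.43 with normexp background correction and 1.61 over members detected on all 5 arrays. Against MEF (17 higher, 5 lower, median 0.85), leaving out arrays gave 13 to 17 higher, 4 to 5 lower and medians of 0.81 to 1.04. The higher members numbered 13 with quantile normalization and with the deposited value table, and 14 with normexp and with the mean of all probes. Requiring detection on all 5 arrays left 27 members, with 9 higher and a median of 0.40. The count of lower members was 3 with quantile normalization, with the percentile over probes detected everywhere, with the deposited value table and without the trend. For p13 against p5 (0 passed, median -0.50), leaving out a p13 array gave medians of -0.50 to -0.49 with no test, as no residual degree of freedom remained. The median was -0.41 with the percentile over detected probes, -0.37 with normexp, -0.40 with no filter, -0.51 with detection on all 5 arrays and -0.38 with the mean of all probes of a gene. For NPC against MEF (13 lower, 1 higher by 4-fold), measured values with no floor gave 2 higher. With no filter on dim probes, Oas1g passed as higher than MEF at a log2 difference of 2.65. The causes of these shifts were not tested, apart from the smaller number of members that a stricter filter tests. The p5 array is the only one of its passage, so it could not be left out of that comparison. No paired analysis was possible because the groups share fewer than 2 replicate numbers. Where an array did not detect a member, only a bound on its difference from that array can be stated.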
